A study of Mus musculus with 6 samples.

Results

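The constant genes of the mouse T cell receptor were followed in 6 bulk tumours, chain by chain. The members were 7 genes chosen by symbol, out of 57462 genes listed per tumour. Trac encodes the constant region of the alpha chain, Trbc1 and Trbc2 those of the beta chain, Trdc that of the delta chain, and Trgc1, Trgc2 and Trgc4 those of the gamma chain. The tumours belong to what the submitters call an early tumor model of HM1, an ovarian cancer line of the mouse. RNA sequencing covered 3 tumours labelled shControl, whose genotype is given as wild type, and 3 labelled shST3GAL3, whose genotype is given as ST3GAL3 knockdown. The series title names the question, whether ST3GAL3 made by the tumour cells dampens immunity against the tumour. ST3GAL3 is a sialyltransferase, an enzyme that adds sialic acid to the sugars of glycoproteins. The labels give no hairpin sequence, clone, host strain, age or tumour site, and do not say whether each tumour came from its own mouse. P-values therefore measure the spread between these tumours, which may be partly technical.

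T cells read antigen through a receptor made of 2 variable chains, either alpha with beta or gamma with delta. Each chain joins a rearranged variable part to a constant region, and the constant region anchors the chain in the membrane beside the CD3 and zeta proteins that carry the signal inwards. Alpha-beta T cells recognise peptides on MHC molecules and include the CD4 and CD8 cells that drive most anti-tumour responses. Gamma-delta T cells are fewer in most lymphoid organs, recognise many ligands without MHC, and in mouse tumours are known both as killers and as a source of interleukin-17. The delta genes lie inside the alpha locus, and the mouse has 2 beta constant genes and several gamma constant genes that a cell can use.

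The sequences show which of these genes a short read can tell apart, which bears on every value that follows. Sequences and positions came from GENCODE M21 on the build GRCm38, whereas the deposited values were made on GRCm39. In that annotation Trdc lies at chr14:54142851-54148868 and Trac at chr14:54220521-54224206, both on the plus strand. Trbc1 lies at chr6:41538218-41539881 and Trbc2 at chr6:41546730-41548352, also on the plus strand. On chromosome 13, Trgc1 lies at chr13:19214103-19217024 (plus), Trgc2 at chr13:19304649-19307551 (minus) and Trgc4 at chr13:19344558-19352756 (plus).

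Trbc1 and Trbc2 were 95.6% identical over their 518 coding bases. The first 259 coding bases were the same in both, and exon 1, of 375 bases, held 1 of the 23 differences (C260A, counted from the first coding base of the constant gene, with the Trbc1 base first). The other 22 lay between coding bases 371 and 518, the end of the coding sequence, printed here because it holds nearly all the coding bases that separate the beta genes. Capitals mark the bases that differ.
Trbc1: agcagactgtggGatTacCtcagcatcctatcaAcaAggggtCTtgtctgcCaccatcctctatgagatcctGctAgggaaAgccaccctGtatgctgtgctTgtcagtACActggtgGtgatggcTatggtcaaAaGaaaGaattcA
Trbc2: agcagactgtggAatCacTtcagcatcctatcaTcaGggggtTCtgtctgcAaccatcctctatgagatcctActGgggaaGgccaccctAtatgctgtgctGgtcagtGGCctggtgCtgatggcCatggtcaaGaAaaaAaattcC

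Trgc1 and Trgc2 were closer still, with 13 mismatches over 500 aligned coding bases (97.4% identity), and Trgc2 lacked 15 bases that Trgc1 has. The stretch around those bases, from coding base 304, is shown because the insertion is the longest difference between the coding sequences. Capitals mark the insertion and the 1 other base that differs there.
Trgc1: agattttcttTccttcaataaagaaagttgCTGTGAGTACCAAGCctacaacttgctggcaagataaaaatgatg
Trgc2: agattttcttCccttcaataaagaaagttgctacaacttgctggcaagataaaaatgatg
Trgc4 was further away, 77.3% identical to Trgc1 and 78.8% to Trgc2.

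Trac and Trdc, which share a locus but not a sequence, aligned at 56.3% identity. The first 90 coding bases of each are printed to show this, with no capitals.
Trac: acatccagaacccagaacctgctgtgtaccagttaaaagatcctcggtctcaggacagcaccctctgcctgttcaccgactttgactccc
Trdc: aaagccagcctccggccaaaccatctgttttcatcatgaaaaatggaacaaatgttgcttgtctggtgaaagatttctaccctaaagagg

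Cut into every possible stretch of 50 bases, the Trac and Trgc4 transcripts had all their stretches, 364 and 936, in no other gene of the annotation. The share so found was 58.9% for Trbc1, 56.0% for Trbc2, 65.8% for Trgc1 and 74.6% for Trgc2. At 100 bases it was 71.3% for Trbc1, 69.1% for Trbc2, 91.8% for Trgc1 and 99.4% for Trgc2. No read length is given in the labels, and the authors' estimation could have divided shared reads between the members of a pair. The split between Trbc1 and Trbc2, and between Trgc1 and Trgc2, is therefore uncertain, and the sum over each pair is less affected.

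Trdc differed from the other members in its untranslated end. Its listed transcript has 3865 bases, of which 458 are coding and 3407 untranslated, against 413 listed bases for Trac, 410 of them coding. All 409 coding stretches of 50 bases were found in no other gene, but stretches of the untranslated part recurred in 945 other genes, leaving 93.3% of all its stretches unique. It also shares 96 exonic bases with the antisense gene Gm43434 and 207 with the variable gene Trdv5 on the opposite strand. Whether the counting used strand is not stated in the labels or files. Trdv5 was at 0 in all 6 tumours and Gm43434 in 5 of 6, with 0.25 TPM in shST3GAL3 tumour 1.

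Levels are given in TPM, which divides each gene's signal by its transcript length and sums to between 999999 and 1000001 per tumour. The number of reads cannot be had from TPM, and the depth of each library is unknown. St3gal3, the targeted gene, stood at 14.03, 13.84 and 13.79 TPM in the shControl tumours and at 8.44, 6.77 and 7.49 TPM in the shST3GAL3 tumours, lower in 3 of 3 (log2 fold change -0.80, SE 0.11, limma adjusted p = 0.348). Of the markers of the labelled cell type, the keratins Krt8, Krt18 and Krt19 were abundant, between 384 and 1304 TPM, whereas Epcam, Krt7 and Pax8 stayed at or below 1.65 TPM. shST3GAL3 tumour 1 stood apart from the rest, with a limma library weight of 0.2045 and 3772 TPM of Igkc, the kappa light chain of antibodies, against 2.22 to 289 TPM elsewhere. Several results are therefore also given without it.

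The alpha-beta genes were present in every tumour at between 7.52 and 32.25 TPM, and the gamma-delta genes at between 0.06 and 2.96 TPM. No member passed the test between the groups: genes were tested with limma on log2(TPM + 1) if they had at least 1 TPM in 3 or more tumours, and p-values were adjusted over all 14207 such genes. Of those genes 0.0% were called higher and 0.00704%, 1 gene, lower in the shST3GAL3 tumours at an adjusted p under 0.05. 4 of 7 members entered the test, namely Trac, Trbc1, Trbc2 and Trgc2, and 0 of the 4 were called. All 4 had positive log2 fold changes, against 52.7% of all tested genes, although that of Trgc2 turned negative under quantile normalization, and their median was 0.495 against 0.0132 for all. Before adjustment 1 of the 4, Trbc2, was higher with a p under 0.05, against 9.19% of all tested genes. In the same way 1 of the 4 had all 3 shST3GAL3 values above all 3 shControl values, against 15.7% of tested genes, and 0 of the 4 had all 3 below, against 7.76%.

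**Figure D1:**
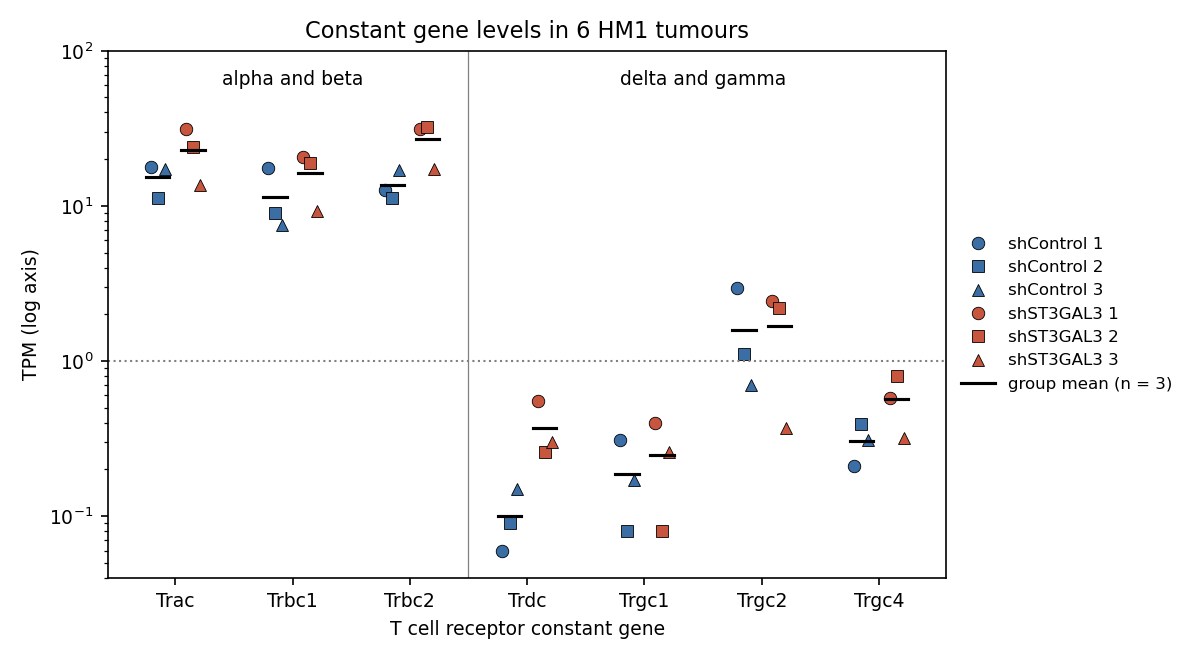
TPM of the 7 constant genes (x axis) on a log axis (y axis), 1 marker per tumour, blue for shControl and red for shST3GAL3, with the group mean as a bar (n = 3) and the filter level of 1 TPM dotted. The alpha and beta genes lie at 7.52 TPM or more in every tumour, and Trdc, Trgc1 and Trgc4 lie below 1 TPM in every tumour.

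Trac, the alpha constant gene, is transcribed in every alpha-beta T cell from the rearranged locus. It stood at 17.74, 11.28 and 17.3 TPM in the shControl tumours and at 31.47, 24.0 and 13.59 TPM in the shST3GAL3 tumours. shST3GAL3 tumours 1 and 2 were the highest of the 6, tumour 3 lay inside the shControl range, and the groups overlapped. The means were 15.4 ± 3.61 and 23.0 ± 8.98 TPM (SD, n = 3), and the log2 fold change of 0.50 (SE 0.31) had a limma adjusted p of 0.487. Without shST3GAL3 tumour 1 it was 0.24, and without tumour 3 it was 0.82 (limma adjusted p = 0.191).

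Trbc2 is the beta constant gene further from the variable segments. Its values were 12.64, 11.17 and 16.92 TPM in the shControl tumours and 31.3, 32.25 and 17.26 TPM in the shST3GAL3 tumours. All 3 shST3GAL3 values were above all 3 shControl values, but tumour 3 exceeded the highest control only narrowly. The log2 fold change was 0.91 (SE 0.26, limma adjusted p = 0.38), and an exact permutation of the tumours (two-sided) reached p = 0.1, which is as low as 3 against 3 can go. Without shST3GAL3 tumour 1 the fold change was 0.78.

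Trbc1, the beta constant gene nearer to the variable segments, stood at 17.56, 9.04 and 7.52 TPM in the shControl tumours and at 20.78, 18.91 and 9.2 TPM in the shST3GAL3 tumours. The groups overlapped, since shControl tumour 1 was well above the other controls and shST3GAL3 tumour 3 was near them. The means were 11.4 ± 5.41 and 16.3 ± 6.22 TPM (SD, n = 3), with a log2 fold change of 0.49 (SE 0.39, limma adjusted p = 0.562). It moved to 0.84 without shST3GAL3 tumour 3, to 0.83 without shControl tumour 1, and to 0.29 without shST3GAL3 tumour 1.

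A T cell uses 1 of the 2 beta constant genes, so the share of Trbc1 in their sum describes the mixture of receptors, within the limits of their shared sequence. That share was 58.15%, 44.73% and 30.77% in the shControl tumours and 39.9%, 36.96% and 34.77% in the shST3GAL3 tumours. The 3 shST3GAL3 tumours lay close together, inside the range of the controls. The means were 44.6 ± 13.7% and 37.2 ± 2.57% (SD, n = 3), with p = 0.5 in an exact permutation test (two-sided). The difference, shST3GAL3 minus shControl, was -7.34 percentage points, and it was -0.539 points without shControl tumour 1 and -14.2 points without shControl tumour 3.

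Summed, the 3 alpha-beta genes came to 47.94, 31.49 and 41.74 TPM in the shControl tumours and to 83.55, 75.16 and 40.05 TPM in the shST3GAL3 tumours. 2 shST3GAL3 tumours were above every control, and tumour 3 was below shControl tumours 1 and 3. Group means were 40.4 ± 8.31 and 66.3 ± 23.1 TPM (SD, n = 3), a ratio of 1.64. The difference of 25.9 TPM became 17.2 TPM without shST3GAL3 tumour 1 and 39.0 TPM without tumour 3. In bulk RNA, more T cells and more receptor RNA per T cell cannot be told apart.

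Trdc is the only delta constant gene, and which cells made its RNA was not tested. It stood at 0.06, 0.09 and 0.15 TPM in the shControl tumours and at 0.55, 0.26 and 0.3 TPM in the shST3GAL3 tumours. All 3 shST3GAL3 values were above all 3 controls, with the highest in tumour 1. The means were 0.1 ± 0.0458 and 0.37 ± 0.157 TPM (SD, n = 3), a ratio of 3.7 between values that are given with 2 decimals and are all below 1 TPM. The gene was therefore not among the genes tested, and a fit of all genes without the filter gave a log2 fold change of 0.31 (SE 0.0927, limma adjusted p = 0.587). An exact permutation of the tumours (two-sided) again reached its floor of p = 0.1. The difference in means was 0.27 TPM with all tumours and 0.18 TPM without shST3GAL3 tumour 1.

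Trgc2 was the most abundant gamma constant gene in 6 of 6 tumours. Its values were 2.96, 1.11 and 0.7 TPM in the shControl tumours and 2.44, 2.21 and 0.37 TPM in the shST3GAL3 tumours. Both groups spanned nearly the same range. Their means were 1.59 ± 1.20 and 1.67 ± 1.14 TPM (SD, n = 3), with a log2 fold change of 0.03 (SE 0.46, limma adjusted p = 0.981). Its sign was negative under 6 of 14 alternative settings, so no direction is given.

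Trgc4, the gamma constant gene with the most distinct sequence, stood at 0.21, 0.39 and 0.31 TPM in the shControl tumours and at 0.58, 0.8 and 0.32 TPM in the shST3GAL3 tumours. The groups overlapped through shST3GAL3 tumour 3, and the unfiltered log2 fold change was 0.26 (limma adjusted p = 0.595). Trgc1, the near copy of Trgc2, stood at 0.31, 0.08 and 0.17 TPM in the shControl tumours and at 0.4, 0.08 and 0.26 TPM in the shST3GAL3 tumours. These groups overlapped too, with an unfiltered log2 fold change of 0.07 (limma adjusted p = 0.823). The difference in means was 0.06 TPM, and -0.017 TPM without shST3GAL3 tumour 1. The gamma genes together came to 1.18 to 3.48 TPM in the shControl tumours and 0.95 to 3.42 TPM in the shST3GAL3 tumours, and Trgc2 made up 39.0% to 85.1% of that sum. The delta and gamma genes did not order the tumours alike: shST3GAL3 tumour 3 had the second highest Trdc value and the lowest gamma sum.

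Between the alpha and delta constant genes, Trac was above Trdc in 6 of 6 tumours on the TPM scale, which corrects for length. The ratio of Trac to Trdc was 295.7, 125.3 and 115.3 in the shControl tumours and 57.22, 92.31 and 45.3 in the shST3GAL3 tumours. On the log2(TPM + 1) scale the difference was 3.97 on average, between 3.49 and 4.39, with p = 0.03125 in an exact sign-flip permutation test (two-sided), its floor for 6 tumours. With the lengths listed in the files multiplied back in, the ratio was 31.59, 13.39 and 12.32 in the shControl tumours and 6.114, 9.864 and 4.841 in the shST3GAL3 tumours. Trac thus stayed above Trdc by both measures, but the size of the gap depended on the lengths. Which lengths entered the authors' estimation is not stated in the labels or files, and a second annotated Trac transcript has 935 bases.

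As a share of Trac plus Trdc, Trdc made up 0.337%, 0.792% and 0.860% in the shControl tumours and 1.72%, 1.07% and 2.16% in the shST3GAL3 tumours. All 3 shST3GAL3 tumours were above all 3 controls, tumour 3 included, whose Trac level lay within the control range. The means were 0.663 ± 0.284% and 1.65 ± 0.547% (SD, n = 3), and the exact permutation test (two-sided) was at its floor, p = 0.1. Without shST3GAL3 tumour 1 the difference was 0.953 percentage points, against 0.987 with it. With the listed lengths multiplied back in, the shares were 3.068%, 6.948% and 7.505% in the shControl tumours and 14.06%, 9.205% and 17.12% in the shST3GAL3 tumours. Multiplying by fixed lengths keeps the order of the tumours, so the lack of overlap here is no second result.

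The share of all 4 gamma-delta genes in the 7 members gave another order. It was 6.88%, 5.04% and 3.09% in the shControl tumours and 4.54%, 4.27% and 3.03% in the shST3GAL3 tumours. The groups overlapped, and the shST3GAL3 mean was the lower, 3.94 ± 0.805% against 5.0 ± 1.89% (SD, n = 3). With the listed lengths multiplied back in, the means were nearly level, 8.38 ± 1.05% against 8.58 ± 2.07%, and the groups overlapped too. With Trdc as the only gamma-delta gene counted, the shares of TPM were 0.125%, 0.285% and 0.358% in the shControl tumours. They were 0.654%, 0.345% and 0.744% in the shST3GAL3 tumours, with the shST3GAL3 mean the higher. These are shares of RNA rather than of cells, and which cells made the RNA was not tested. The sign of the difference in the gamma-delta share therefore turned on whether the gamma genes, mostly Trgc2, were counted. Summed, the 4 genes came to 3.54, 1.67 and 1.33 TPM in the shControl tumours and to 3.97, 3.35 and 1.25 TPM in the shST3GAL3 tumours, which overlapped.

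**Figure D2:**
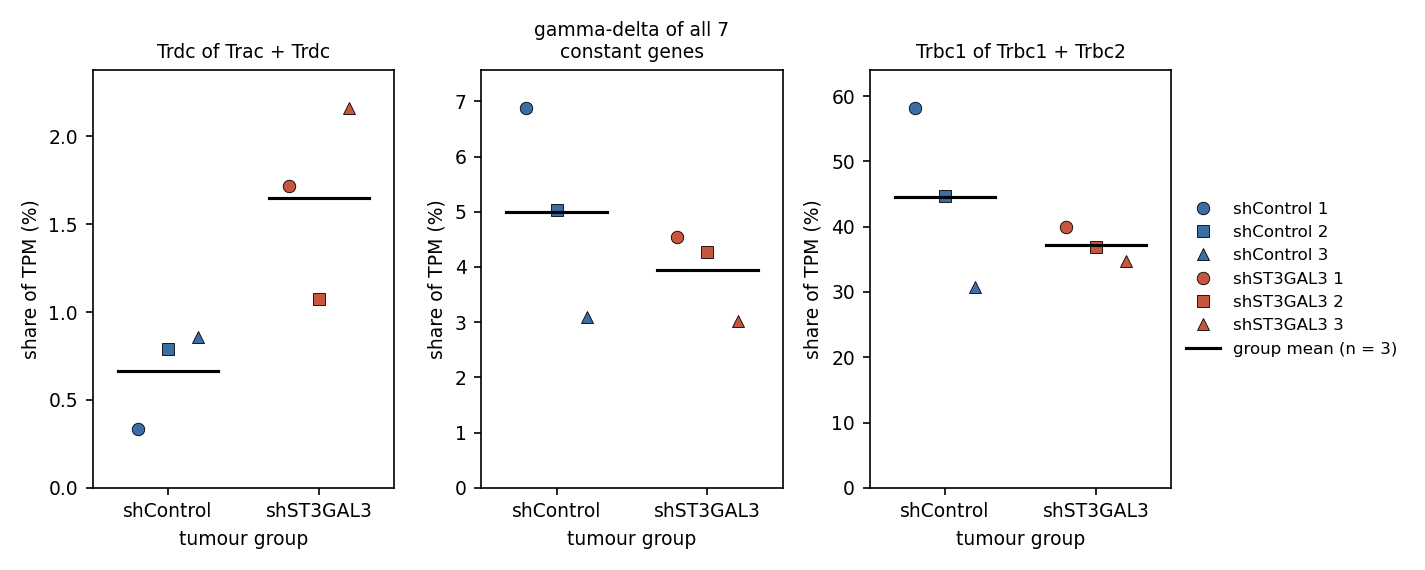
Share of summed TPM (y axes, percent, from 0) per tumour by group, for Trdc in Trac plus Trdc, for the 4 gamma-delta genes in all 7 constant genes, and for Trbc1 in Trbc1 plus Trbc2, with the group mean as a bar (n = 3). Only in the panel of Trdc in Trac plus Trdc do the groups not overlap, with 0.337% to 0.860% in shControl and 1.07% to 2.16% in shST3GAL3 tumours.

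The variable genes, which no member includes, gave a separate reading of the same chains. The alpha variable genes (Trav) summed to 34.07, 14.9 and 18.62 TPM in the shControl tumours and to 54.42, 54.13 and 29.22 TPM in the shST3GAL3 tumours. The beta variable genes (Trbv) summed to 29.23, 18.43 and 21.54 TPM in the shControl tumours and to 48.0, 55.48 and 21.79 TPM in the shST3GAL3 tumours. shST3GAL3 tumours 1 and 2 were the highest in both, as for the constant genes, and tumour 3 was inside the control range of both. Of 130 Trav genes 91 were above 0 in at least 1 tumour, and of 35 Trbv genes 18. The highest were Trav6n-6, at 0.47 to 3.86 TPM, and Trbv4, at 1.32 to 11.42 TPM.

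The delta and gamma variable genes were sparse. The 6 Trdv genes summed to 0.76, 0.67 and 0.32 TPM in the shControl tumours and to 1.15, 2.72 and 0.33 TPM in the shST3GAL3 tumours, and the 7 Trgv genes to 0.32 to 0.79 TPM over all 6. Neither sum separated the groups. Trdv1 was listed above 0 in 1 tumour of each group, at 0.67 and 1.78 TPM, and Trgv2 in 4 of 6 at up to 0.48 TPM. Delta and gamma genes made up 1.26% to 3.62% of all variable gene TPM, with overlapping groups. The 84 joining and diversity segments in the files were all listed at 0.

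CD3 and zeta proteins assemble with both kinds of receptor, so their genes mark T cells of either lineage. Cd3e stood at 7.67, 6.89 and 5.67 TPM in the shControl tumours and at 14.69, 12.89 and 6.76 TPM in the shST3GAL3 tumours. Summed over Cd3e, Cd3d and Cd3g, the values were 34.16, 22.55 and 22.55 TPM and 47.23, 53.04 and 22.64 TPM. The alpha-beta constant sum per CD3 sum was 1.55 ± 0.261 in the shControl and 1.65 ± 0.203 in the shST3GAL3 tumours (SD, n = 3), between 1.40 and 1.85 throughout. The difference between the groups was smaller than the spread within either. Cd247, the zeta chain gene, was at 4.85 to 5.2 TPM against 6.26 to 10.38 TPM (log2 fold change 0.60, SE 0.18, limma adjusted p = 0.38). It was the 1 of the 4 CD3 and zeta genes with all 3 shST3GAL3 values above all 3 shControl values, against 15.7% of all tested genes. All 4 genes had positive log2 fold changes, with a median of 0.615, and 0 were called. That median was 0.435 without shST3GAL3 tumour 1.

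**Figure D3:**
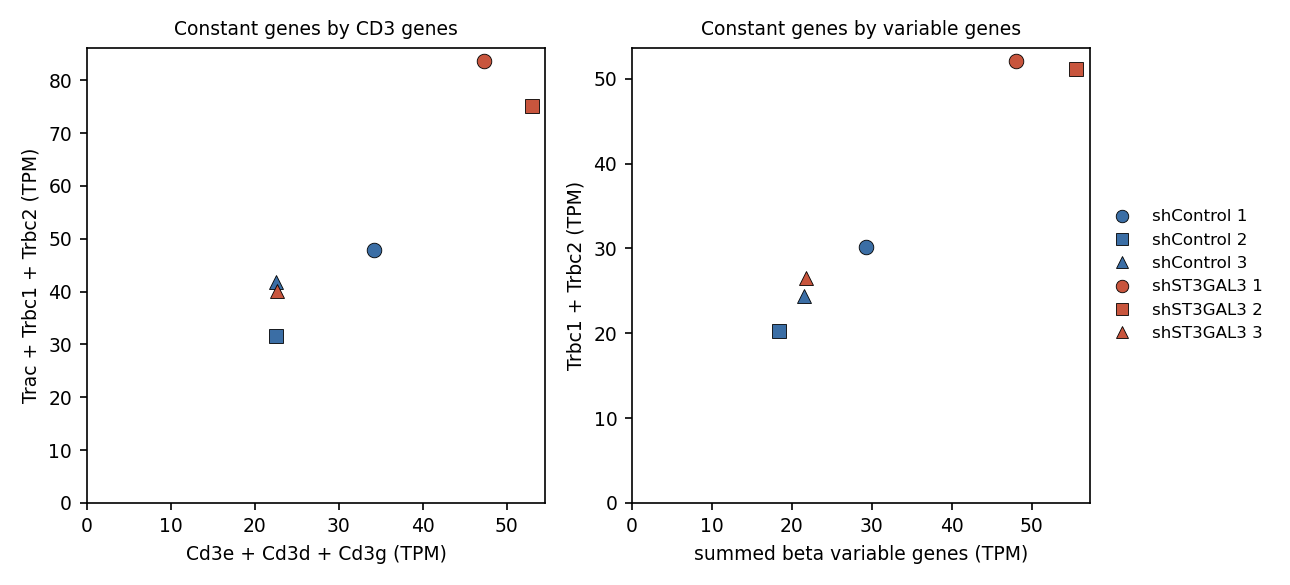
Summed TPM of Trac, Trbc1 and Trbc2 against that of Cd3e, Cd3d and Cd3g, and of Trbc1 and Trbc2 against that of the Trbv genes, 1 marker per tumour on linear axes from 0. In both panels shST3GAL3 tumours 1 and 2 lie at the upper right, and shST3GAL3 tumour 3 lies among the shControl tumours.

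The co-receptors divide alpha-beta T cells into helper and cytotoxic cells. Cd4, which helper T cells and some macrophages carry, stood at 3.3, 5.09 and 4.38 TPM in the shControl tumours and at 20, 9.65 and 7.8 TPM in the shST3GAL3 tumours. All 3 shST3GAL3 values were higher (log2 fold change 1.27, SE 0.33, limma adjusted p = 0.38). Cd8a, on cytotoxic T cells, stood at 8.74, 4.71 and 4.86 TPM in the shControl tumours and at 9.15, 12.07 and 6.98 TPM in the shST3GAL3 tumours, which overlapped. Cd8b1 was at 3.55 to 4.88 TPM against 4.59 to 10.59 TPM, also overlapping.

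The kinases and adaptors that act next to the receptor covered 18 genes, of which 16 were tested. All 16 had positive log2 fold changes with a median of 0.649, and 11 had an unadjusted p under 0.05 (of all tested genes 52.7% were positive and 9.19% higher at that p), but 0 were called over all genes. The median was 0.432 without shST3GAL3 tumour 1. Of the 16, 10 had all 3 shST3GAL3 values above all 3 shControl values, against 15.7% of all tested genes. The 4 with the smallest p were among these 10. Ptpn22, a phosphatase that restrains receptor signalling, was at 9.46 to 12.23 TPM in the shControl and 14.12 to 19.36 TPM in the shST3GAL3 tumours. Sh2d2a, a T cell adaptor, was at 2.24 to 3.84 TPM and 4.37 to 7.73 TPM. The membrane adaptor Lat was at 3.64 to 4.69 TPM and 5.34 to 10.19 TPM, and its partner Lcp2 at 15.9 to 18.3 TPM and 20.54 to 34.45 TPM. Of 5 T cell surface markers all had positive log2 fold changes, with a median of 0.632, or 0.491 without shST3GAL3 tumour 1. Of these markers 4 did not overlap, against 15.7% of all tested genes. Among them the adhesion receptor Cd2 was at 6.23 to 9.46 TPM and 9.55 to 22.43 TPM, and the costimulatory receptor Cd28 at 0.83 to 1.11 TPM and 1.45 to 2.56 TPM.

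**Figure D4:**
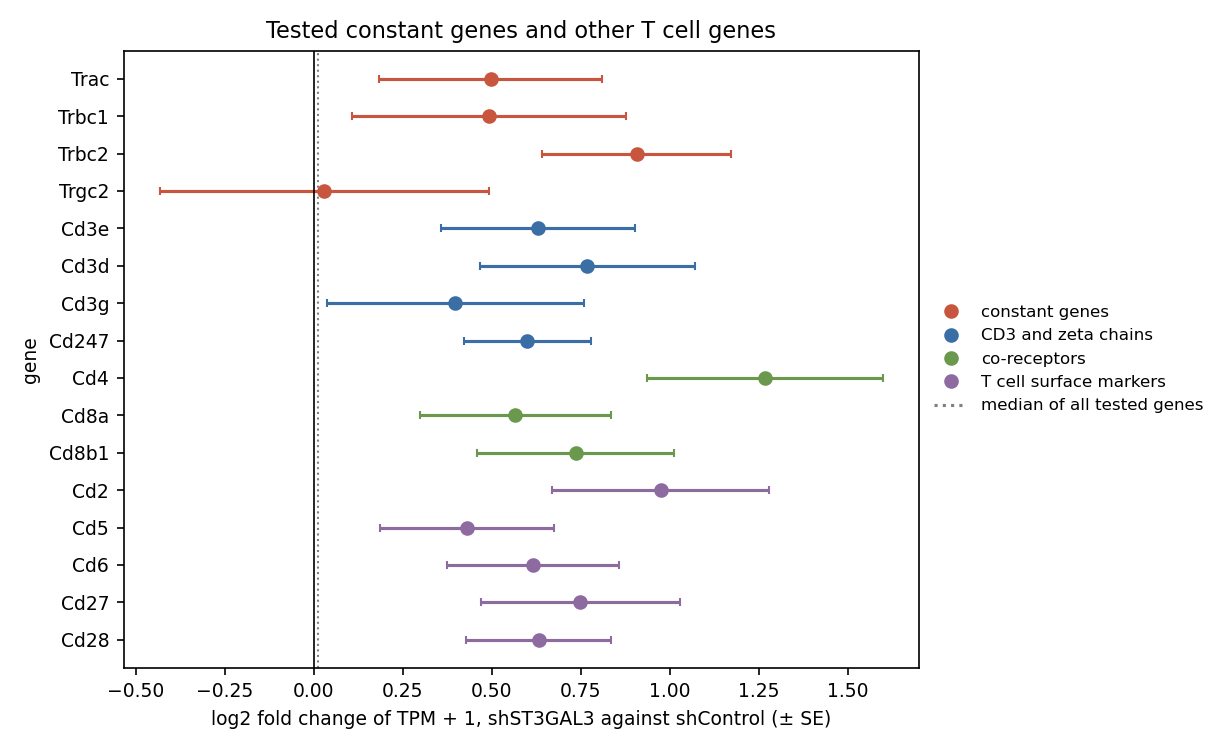
Log2 fold change of TPM + 1 between shST3GAL3 and shControl tumours (x axis) for the tested constant genes, CD3 and zeta chain genes, co-receptors and T cell surface markers (y axis), with points for the limma estimate and bars for its SE. All points lie above 0, Trgc2 nearest to it at 0.03 (it turned to -0.11 under quantile normalization) and Cd4 furthest at 1.27, and no gene passed the adjusted threshold.

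Genes known from the gamma-delta lineage were mostly low. Of 11 such genes 9 were found in the files by symbol, and 6 stayed under 1 TPM in every tumour. Il17a was at 0 in all 6 tumours. Sox13, a transcription factor of the lineage, stood at 0.86, 0.65 and 0.44 TPM against 2.76, 1.17 and 0.69 TPM, with overlap. Of 4 genes of receptor rearrangement and the pre-receptor, all were under 1 TPM and Rag2 was at 0 throughout.

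Markers of other cells moved with the T cell genes in part. Of 8 natural killer cell markers 7 were tested and 6 had positive log2 fold changes, with a summed level of 34.4 to 44.2 TPM in the shControl and 38.8 to 66.5 TPM in the shST3GAL3 tumours. Natural killer cells share parts of the CD3 and zeta machinery but do not rearrange receptor genes. The median log2 fold change of these 7 was 0.432, and 0.207 without shST3GAL3 tumour 1. Il2rb, a cytokine receptor gene that T cells also express, was at 9.67 to 12.48 TPM and 15.41 to 25.78 TPM. It was the 1 of the 7 natural killer markers without overlap, against 15.7% of all tested genes. Eomes was the 1 with a negative log2 fold change (-0.22), at 5.85 to 6.6 TPM and 4.44 to 6.29 TPM. The receptor gene Ncr1 was at 1.40 to 2.88 TPM and 2.38 to 4.65 TPM. Of 7 innate lymphoid cell markers 5 were tested, 3 with positive and 2 with negative log2 fold changes and a median of 0.794. Of these 5, 2 had all 3 shST3GAL3 values above all 3 controls, against 15.7% of all tested genes. The 2 were Kit, at 2.16 to 2.3 TPM and 3.79 to 6.22 TPM, and Il7r, at 1.63 to 2.46 TPM and 3.42 to 11.68 TPM. Another 2, Areg and Ahr, had all 3 below, against 7.76%. The sum over all 7 markers was 225 to 274 TPM against 148 to 228 TPM. It was mostly the growth factor gene Areg, at 203 to 252 TPM in the shControl and 107 to 202 TPM in the shST3GAL3 tumours. All 7 macrophage markers had positive log2 fold changes (sum 1071 to 1281 TPM against 1273 to 2264 TPM). Their median was 0.528, and 0.313 without shST3GAL3 tumour 1.

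All 7 fibroblast markers had positive log2 fold changes as well, with a median of 1.62 and a sum of 622 to 1013 TPM in the shControl and 1171 to 6228 TPM in the shST3GAL3 tumours. Their median was 0.860 without shST3GAL3 tumour 1. Of 7 B and plasma cell markers 3 were tested, and their sum over all 7 was 3.24 to 42.94 TPM against 38.59 to 3917 TPM. Most of it was Igkc, at 3772, 288.6 and 36.44 TPM in shST3GAL3 tumours 1, 2 and 3, so that tumour 3 lay within the control range. The median log2 fold change of the 3 was 2.66, and 1.16 without tumour 1. Of 8 epithelial and ovarian tumour markers 5 were tested, at a median of -0.33 (log2 fold change) and a sum of 3207 to 3687 TPM against 1773 to 3211 TPM. That median was -0.12 without shST3GAL3 tumour 1. None of the markers in these lists was called. The part of these differences in the levels of the constant genes was not tested.

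Set against Ptprc, the pan-leukocyte gene CD45, the alpha-beta sum was 1.712, 1.131 and 1.467 per unit of Ptprc in the shControl tumours and 1.749, 1.759 and 1.428 in the shST3GAL3 tumours. The values overlapped on this scale as on the TPM scale. Ptprc itself stood at 28.0, 27.85 and 28.45 TPM in the shControl tumours and at 47.76, 42.73 and 28.05 TPM in the shST3GAL3 tumours, and so tumour 3 was at the control level for both.

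The tested genes whose profile over the 6 tumours was most like that of Trac were Carmil1, Otulinl, Clec4a2, Pvrig and Ppm1h, out of 12276 genes compared. Likeness was the root mean square difference of log2(TPM + 1) after each gene's mean was taken off, 0.0843 for Carmil1 and 0.133 for Ppm1h, where Trac itself varied by 0.465. For Trdc, which varied by 0.185, the nearest were Setd1b, Fkbp9, Sgpp1, Mcl1 and Tnfrsf1a, at 0.0348 to 0.0402. Trdc lay at 0.06 to 0.55 TPM, where adding 1 compresses its differences, including the ratio of 3.7 between its group means. Abundant genes with much smaller ratios can therefore come out near it. The spreads of Trac and Trdc differ by more than these distances, so the 2 lists could share no gene. Mcl1, a survival factor, stood at 82.3 to 88.3 TPM in the shControl and 95.6 to 116 TPM in the shST3GAL3 tumours.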

How the data were processed

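Bulk RNA sequencing of 3 shControl and 3 shST3GAL3 HM1 tumours was used, with groups and replicate numbers from the sample titles. The deposited values are TPM per gene with 2 decimals, a unit recognised from their sums of 999999 to 1000001 per tumour. The files also list another value made by the authors, a length per gene. Tools named in the submitters' processing notes, without versions, are fastp, HISAT and RSEM, with the build GRCm39, while annotation release and strandedness are not stated. TPM keeps no depth, so counting error could not be computed and the replicates alone show the precision.

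Genes with at least 1 TPM in 3 or more tumours (14207) were tested on log2(TPM + 1) with limma 3.58.1 (R 4.3.3), its variance prior following the mean and the group as the sole term. Benjamini-Hochberg adjustment ran over all tested genes at a threshold of 0.05. Fold changes on this scale understate those of low genes. Single values were compared with exact two-sided permutation tests in scipy 1.17.1. The groups were compared in 10 such tests, whose p-values are given unadjusted. The limma procedure was tested on simulated data, 20 runs with 200 changed genes each. Sequences came from GENCODE M21 by gene ID, in which all 7 members were found and the gamma genes are named Tcrg-C1, Tcrg-C2 and Tcrg-C4.

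The members and gene lists were chosen with earlier results of these data known. Besides the members and St3gal3, the rule covered all CD3, zeta and co-receptor genes, up to 4 genes with the smallest p in each other list and those near 0 that define a cell type, the highest variable gene of each chain, and the 5 genes nearest to Trac and to Trdc. Not all of them are described, and other genes were named after their values were seen. Alternatives were another pseudocount of 0.1, other filters, 3 scalings, library weights, a replicate block, and each tumour left out in turn. Some genes of the lists are not reported here.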

Additional observations from a re-analysis of the deposited data

How the results depend on the processing

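The log2 fold changes of Trac, Trbc1 and Trbc2 stayed positive and uncalled under all 14 alternative settings. Leaving out 1 tumour in turn gave 0.24 to 0.82 for Trac, 0.27 to 0.84 for Trbc1 and 0.76 to 1.19 for Trbc2, whose lowest limma adjusted p was 0.136, without shST3GAL3 tumour 3. Trgc2, at 0.03, turned to -0.034 with a pseudocount of 0.1, to -0.11 with quantile normalization, and to between -0.23 and 0.46 with 1 tumour left out. It was negative without shControl tumour 2 or 3 and without shST3GAL3 tumour 1 or 2. Over all genes 0 were called higher and 1 lower, and at an unadjusted p under 0.05 limma gave 1305 higher and 537 lower. A pseudocount of 0.1 gave 1 higher, library weights 5 higher and 3 lower, and leaving out 1 tumour 0 to 2 higher and 1 to 2 lower, with 2 higher without shST3GAL3 tumour 1 and 2 lower without shST3GAL3 tumour 2 or 3. The cause was not tested. In the CD3 and zeta, co-receptor, T cell surface, receptor-proximal, macrophage and fibroblast lists every tested gene stayed positive under each scaling, and with 1 tumour left out all did but 1 of the 16 receptor-proximal genes, without shControl tumour 1. The unadjusted split became 969 higher and 821 lower under median-ratio scaling, 880 and 960 under quantile normalization, and 1100 and 667 after rescaling without mitochondrial, ribosomal protein and immunoglobulin genes.

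Trac exceeded Trdc by 3.89 to 4.07 with 1 tumour left out, with an exact permutation p of 0.0625, the smallest that 5 tumours allow. The difference in the gamma-delta share was -1.06 percentage points for all 4 genes and 0.325 by Trdc alone, and -2.01 to -0.119 with 1 tumour left out. For all 4 genes it was -0.2055 points with the listed lengths multiplied back in. The difference in the alpha-beta sum per CD3 sum was 0.101, but -0.246 per Cd3e alone and 0.209 per Ptprc. The settings with listed lengths multiplied back in and with Ptprc were chosen after seeing the data. The difference in the gamma-delta sum, 0.677 TPM, was 0.12 TPM without shST3GAL3 tumour 1 and 1.48 TPM without tumour 3.

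With the replicate number as a block, 0 genes were called higher and 1 lower, and the limma adjusted p was 0.480 for Trac, 0.363 for Trbc1, 0.341 for Trbc2 and 0.970 for Trgc2, so the block changed no call. Same-numbered tumours correlated at 0.0145, -0.0799 and 0.0402 after the group means were taken off, and shControl tumour 1 correlated best with shST3GAL3 tumour 2 (0.128), so the numbers do not pair the tumours.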
